A study of Mus musculus with 7 samples.

Results

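The genes described here are 41 genes of sterol and fatty acid metabolism in neural cells derived from mouse stem cells. They were listed by name and found by the Ensembl identifier that the deposited files give for each event. The list holds 19 genes of sterol synthesis, 5 of SREBP regulation, 3 of sterol transport, 5 of sterol efflux and 9 of fatty acid synthesis. The whole series named 13642 genes at a transcript start or end.

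Embryoid bodies were formed over 6 days from wild-type embryonic stem cells (mouse line B6G-2), and neural progenitors were then grown with bFGF and EGF. At day 14 the progenitors were moved to BrainPhys with B27, a medium for neurons and glia, and each culture was exposed to an insecticide for 1 day. There were 7 libraries, with 1 each for the control, the organophosphate chlorpyrifos, the organochlorine DDT, rotenone, the carbamate carbaryl, the pyrethroid deltamethrin and the neonicotinoid imidacloprid. The labels used here state neither a dose nor what the control received, and all cultures share 1 cell line. With 1 library per group no value below has a replicate check, no test was made, and all 6 comparisons share the same control library. The stated aim of the study was to find how these compounds disturb neural development.

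Cells make cholesterol from acetyl-CoA through mevalonate, squalene and lanosterol, and they make long-chain fatty acids from the same acetyl-CoA by carboxylation, chain growth, elongation and desaturation. Transcription of both routes is driven by the SREBP factors, which Scap escorts out of the endoplasmic reticulum when sterol is low and which the Insig proteins hold back when sterol is high. Sterol in excess activates the LXR receptors, which switch on efflux pumps such as Abca1 and Abcg1. In the brain most cholesterol is made locally, by glia and, during development, by neurons as well.

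Promoter windows of these genes are shown first, and any relation between them and the levels given below was not tested. A RefSeq promoter on GRCm38.p6 was found for 32 of the 41 genes, and the 250 bases before each start were searched on both strands. The sterol regulatory element was searched as TCACNCCAC, the NF-Y box as CCAAT and the Sp1 box as GGGCGG, and the LXR direct repeat with a spacer of 4 bases was searched as well. Below are the windows of Hmgcs1 (chr13:119690101-119690350, plus strand), Sc5d (chr9:42264301-42264550, minus strand) and Fasn (chr11:120824548-120824797, minus strand). They represent an early and a late step of sterol synthesis and fatty acid synthesis, and none overlaps an annotated exon. Each is printed 5′ to 3′ along its gene. Capitals mark CCAAT or its reverse complement and, in Hmgcs1, the sterol regulatory element as well. The run of 8 capitals in Fasn is a pair of overlapping NF-Y matches, 1 on each strand.
Hmgcs1: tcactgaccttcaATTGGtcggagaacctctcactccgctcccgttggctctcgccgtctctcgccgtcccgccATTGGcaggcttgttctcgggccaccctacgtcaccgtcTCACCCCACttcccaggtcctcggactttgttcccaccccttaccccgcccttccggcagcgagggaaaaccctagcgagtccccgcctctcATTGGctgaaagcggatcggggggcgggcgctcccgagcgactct
Sc5d: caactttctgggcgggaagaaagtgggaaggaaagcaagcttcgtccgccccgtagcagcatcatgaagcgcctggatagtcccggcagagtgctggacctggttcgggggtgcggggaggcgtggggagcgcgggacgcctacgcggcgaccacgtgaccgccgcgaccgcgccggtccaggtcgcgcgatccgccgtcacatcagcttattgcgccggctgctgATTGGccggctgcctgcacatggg
Fasn: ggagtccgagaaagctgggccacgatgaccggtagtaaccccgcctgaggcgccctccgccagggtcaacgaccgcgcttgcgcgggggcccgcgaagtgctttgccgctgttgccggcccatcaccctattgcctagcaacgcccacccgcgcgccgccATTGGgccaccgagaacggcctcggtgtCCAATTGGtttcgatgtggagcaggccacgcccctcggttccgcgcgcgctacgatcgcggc

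The NF-Y box was in a window of 15 of the 16 sterol synthesis genes with a promoter, all but Acat2, and in 15 of their 19 windows (78.9%). The same letters were in 33.8% of all 32851 promoters in the table. The Sp1 box was in a window of 14 of those 16 genes and in 15 of their 19 windows (78.9%), beside 32.7% of all promoters. The boxes were also frequent among the 5 SREBP regulation genes. There the NF-Y box was in 4 genes and 5 of 10 windows, and the Sp1 box in 5 genes and 7 of 10 windows. Among 6 fatty acid genes the NF-Y box was in 2, Fasn and Elovl5, a share of 33.3% that is close to that of all promoters. Hmgcs1 alone among the 32 genes held the letters searched for the sterol regulatory element, 137 bases before its start, and 1.05% of all promoters held them. The LXR repeat was in none of the 32 genes and in 0.0152% of all promoters. A match is a description of letters in these windows and not a measured binding site. The lack of a match does not show that a site is absent, because only these exact letters were searched.

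The files list values in FPKM, a fragment count divided by transcript length and library size, for events of transcript structure such as a start, an end or a skipped exon. A gene's start total and end total were each summed over its distinct events, and both estimate the same expression. For some genes, such as Nsdhl and Npc2, they were identical in every library, so their likeness is not an independent check. The 2 totals were like each other for 22 of the 41 genes, and the mean of the 2 is used as the level. The totals disagreed for 6 genes. A start alone was listed for 7 and an end alone for 1, while 1 gene was under 1 FPKM and 4 were named by no event. Differences are of log2(FPKM + 1), exposed minus control, and are set beside those of all 6299 genes treated alike. Each library held between 93977 and 95776 distinct events, and its start totals summed to between 282569 FPKM with deltamethrin and 290440 FPKM with DDT. The files used give no read counts, so the depth is unknown.

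All 7 markers of the labelled cell type, neural progenitors, were present. The intermediate filament genes Vim (995 to 1233 FPKM) and Nes (165 to 206 FPKM) were the most abundant, and Sox2, Hes1, Hes5, Fabp7 and Pax6 lay between 3.16 and 32.7 FPKM. Of the 8 astrocyte markers 5 reached 1 FPKM in each library, while Gfap, Aqp4 and S100b stayed under 1 FPKM. The 7 neuron markers with an event summed to between 220.1 and 249.6 FPKM, and no pluripotency, microglia or endothelial marker exceeded 1.77 FPKM. In such bulk RNA, fewer cells of a type and less RNA per cell cannot be told apart.

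With DDT the sterol synthesis genes as a group were lower than in the control. The median difference over the 10 usable genes was -0.42, and 9 of the 10 were lower (90%), beside 47.6% of all genes compared. The fatty acid genes were also lower with DDT, with a median of -0.37 and 5 of 5 lower. The 1 usable efflux gene, the receptor Nr1h2, differed from the control by 0.15. The median over all genes was 0.01 with DDT. With chlorpyrifos the 2 routes differed in their medians. The median was -0.18 for fatty acid synthesis, with 5 of 5 genes lower, and -0.02 for sterol synthesis, with 6 of 10 lower, beside 50.0% of all genes. With the larger total of each of 8 fatty acid genes the chlorpyrifos median was -0.09, with 7 lower, and with start totals it was -0.09, with 6 lower. With rotenone, carbaryl, deltamethrin and imidacloprid the sterol medians lay between 0.01 and 0.06 and the fatty acid medians between -0.01 and 0.06.

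**Figure D1:**
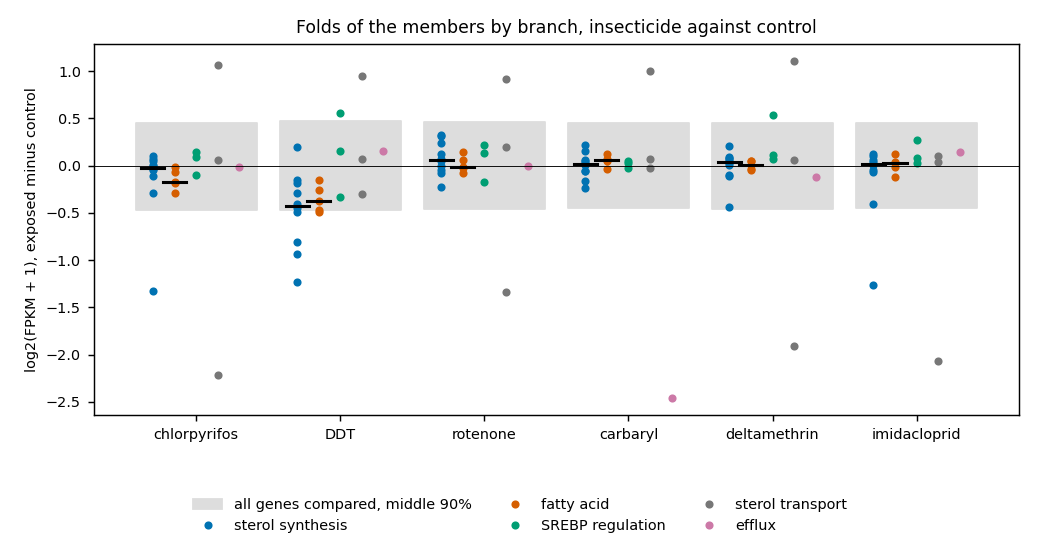
Difference of each usable gene from the control on the log2(FPKM + 1) scale, by insecticide, with genes coloured by branch, black bars for the medians of the sterol synthesis and fatty acid branches, and grey boxes for the middle 90% of all genes compared. With DDT both bars lie below 0 (-0.42 and -0.37), and the lowest point, the efflux receptor Nr1h2 with carbaryl, lies at -2.46.

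Few single genes lay past 1.5-fold. With DDT these were Msmo1, Acat2 and Lss on the low side and Npc1 on the high side, 4 of 22 usable genes beside 6.78% of all genes. With chlorpyrifos they were Msmo1 and Stard4 lower and Npc1 higher, 3 of 22 beside 5.90%. Stard4 was lower and Npc1 higher with rotenone (background 6.33%) and with deltamethrin (6.19%). Nr1h2 was lower and Npc1 higher with carbaryl (6.32%), and Ggps1 and Stard4 were lower with imidacloprid (6.00%). For Acat2 and Npc1 the 2 totals disagreed in 1 of the libraries compared, as given with their values. By end totals alone, Acat2 (77.1 FPKM with DDT, 99.4 in the control) fell short of 1.5-fold on the same scale. So did Npc1 with DDT (15.7 FPKM, against 11.0 in the control), and it passed 1.5-fold by end totals with deltamethrin only. The counts above therefore rest in part on the start totals of these genes.

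Many of these genes shared their lowest library. The DDT library had the lowest level for 8 of 10 sterol synthesis genes, all but Msmo1 and Ggps1, and for 5 of 5 fatty acid genes. Among all genes compared it had the lowest level for 15.0%. The rotenone library had the highest level for 6 of 10 sterol synthesis genes, for 1 of 5 fatty acid genes and for 16.6% of all genes. With the larger of the start and end totals, rotenone was highest for 7 of 17 sterol synthesis genes (41.2%). By the same totals it was highest for 3 of 8 fatty acid genes (37.5%) and for 15.7% of all genes. The shares of these branches were then close, so a difference between them in this count depends on the totals used. Summed over the 10 sterol genes the level was 673 FPKM in the control, 587 with chlorpyrifos, 454 with DDT, 724 with rotenone, 648 with carbaryl, 661 with deltamethrin and 659 with imidacloprid. Over the 5 fatty acid genes the sums were 368, 329, 285, 370.6, 379, 366 and 373 FPKM in the same order.

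Some cell markers also differed between libraries. The oligodendrocyte lineage list, with 5 of its 7 genes listed, summed to 114 FPKM with DDT and to between 162 and 175 FPKM in the other libraries. Nearly all of it was the transcription factor Olig2, at 109.7 FPKM with DDT and 154.5 to 169.1 FPKM elsewhere, whose 2 totals disagreed. Mog and Pdgfra were named by no event, and Mbp, Sox10 and Cspg4 stayed at or under 2.11 FPKM. The progenitor list summed to 1501 FPKM with DDT and 1509 with chlorpyrifos, against 1360 in the control, 1439 with imidacloprid and 1241 with rotenone, and Vim made up most of it. The fibroblast list was highest with rotenone, at 35.5 FPKM against 24.5 to 27.7 elsewhere. The part of these markers in the results was not tested.

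**Figure D2:**
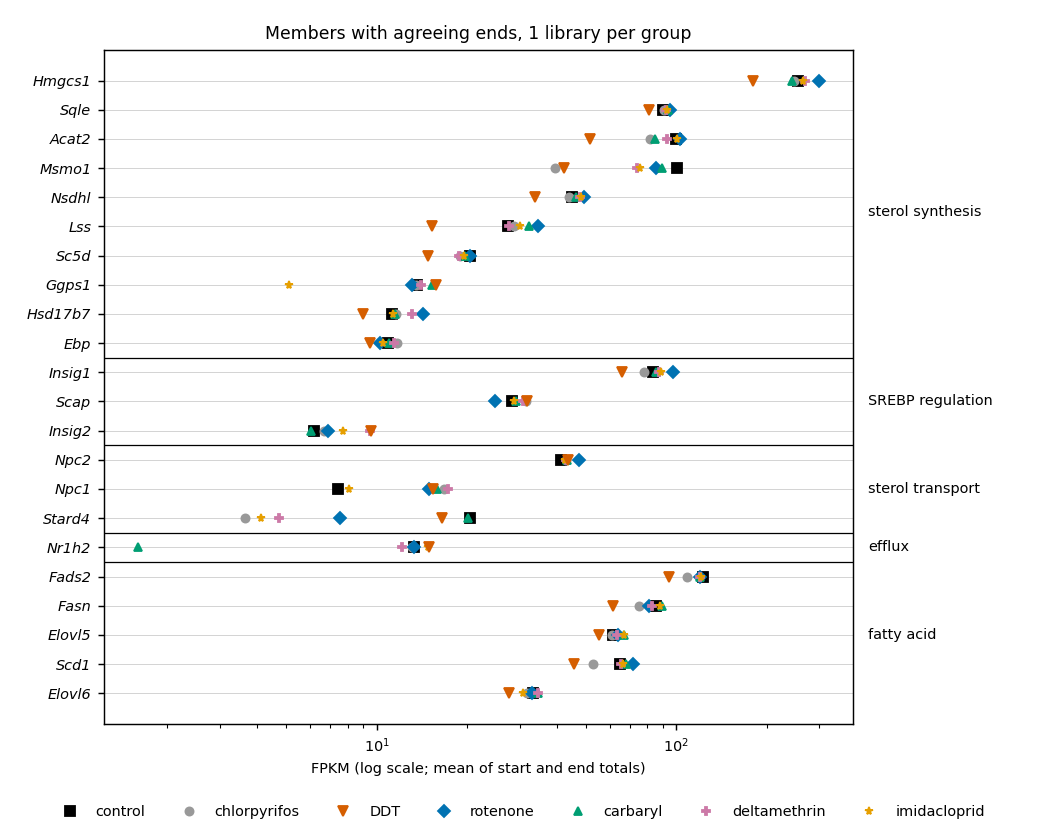
Level of the 22 genes whose start and end totals were alike, as the mean of the 2 totals in FPKM on a log axis, with 1 symbol per library and genes grouped by branch. The DDT symbol is the lowest in 14 of the 22 rows, while Stard4, Npc1, Ggps1 and Nr1h2 show other orders.

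Along the sterol route, the first steps join acetyl units. Acat2, the cytosolic acetoacetyl-CoA thiolase, had end totals of 99.4 FPKM in the control, 84.1 with chlorpyrifos, 77.1 with DDT, 90.8 with rotenone, 87.3 with carbaryl, 96.6 with deltamethrin and 91.9 with imidacloprid. Its start totals were 100.1, 79.0, 26.1, 115, 82.0, 89.96 and 109.7 FPKM in that order. Both totals were lowest with DDT, but by very different amounts, so its difference of -0.94 rests on the start total. Some lines that name Acat2 lie in the neighbouring and similar gene Acat3, and how reads were divided between the pair is uncertain.

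Hmgcs1 (chr13:119690379-119708260), the HMG-CoA synthase, was the most abundant of the 22 genes per unit length. Its level was 254 FPKM in the control, 246 with chlorpyrifos, 180.5 with DDT, 299 with rotenone, 243 with carbaryl, 268 with deltamethrin and 264 with imidacloprid. DDT stood apart on the low side (-0.49) and rotenone on the high side (0.23), with the other 4 exposed libraries within 0.08 of the control.

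The next enzymes, from mevalonate to squalene, were mostly resolved at 1 end. Start totals of Idi1, which isomerizes isopentenyl diphosphate, were 97.9 FPKM in the control, 87.0 with chlorpyrifos, 65.3 with DDT, 93.4 with rotenone, 87.7 with carbaryl, 93.7 with deltamethrin and 95.3 with imidacloprid. Fdps, the farnesyl diphosphate synthase, had start totals of 175, 175, 94.6, 126, 143, 170.5 and 131.5 FPKM in the same order. Pmvk, the phosphomevalonate kinase, had start totals of 51.7, 41.0, 39.7, 46.5, 49.4, 47.3 and 51.2 FPKM. All 3 were lowest with DDT, although Fdps was also lower than in the control with rotenone, carbaryl and imidacloprid, and Pmvk was nearly as low with chlorpyrifos. Some Fdps lines lie in the neighbouring gene Rusc1.

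Mvk, the mevalonate kinase, had a start total of 34.6 FPKM with DDT against 34.7 in the control and up to 48.6 with rotenone, but its end total was highest in the control at 28.5 FPKM and lowest with DDT at 15.7 FPKM. No event named Mvd, and none was found at its position. Fdft1, the squalene synthase, had an end total only, at 22.1 FPKM in the control, 45.1 with chlorpyrifos, 41.5 with DDT, 58.9 with rotenone, 53.6 with carbaryl, 20.0 with deltamethrin and 18.5 with imidacloprid. Its libraries fell into a low set of control, deltamethrin and imidacloprid and a high set of the other 4. Ggps1 makes geranylgeranyl diphosphate for protein prenylation and so lies on a side branch. It stood at 13.6 FPKM in the control, 13.6 with chlorpyrifos, 15.8 with DDT, 13.1 with rotenone, 15.3 with carbaryl, 14.1 with deltamethrin and 5.10 with imidacloprid. It was the 1 usable sterol-branch gene above the control with DDT (0.20), and imidacloprid alone was low (-1.26). The Ggps1 end at 14050390 to 14052130 on chromosome 13 was listed at 0 with imidacloprid and at 5.93 to 7.70 FPKM elsewhere. Its end at 14054053 to 14054455 was not low with imidacloprid, at 5.10 FPKM against 4.37 in the control.

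Squalene is then closed into lanosterol. The epoxidase Sqle (chr15:59315077-59331192) was the second most abundant usable gene of the route after Hmgcs1 by its mean over the libraries. Its level was 90.5 FPKM in the control, 90.9 with chlorpyrifos, 81.3 with DDT, 95.0 with rotenone, 94.1 with carbaryl, 92.2 with deltamethrin and 93.3 with imidacloprid. The range of Sqle was small, 1.17-fold from lowest to highest, though DDT was again the lowest library. Lss (chr10:76531588-76557138), the lanosterol synthase, was at 27.5 FPKM in the control, 28.8 with chlorpyrifos, 15.2 with DDT, 34.5 with rotenone, 32.2 with carbaryl, 27.7 with deltamethrin and 30.0 with imidacloprid. DDT lay 0.81 below the control on the log2 scale, and the other 5 exposed libraries lay above it, by up to 0.32 with rotenone.

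Lanosterol becomes cholesterol by loss of methyl groups and shifts of double bonds. Msmo1 (chr8:64718139-64733792), the sterol C4-methyl oxidase, was at 100.4 FPKM in the control, 39.5 with chlorpyrifos, 42.1 with DDT, 85.5 with rotenone, 89.9 with carbaryl, 73.8 with deltamethrin and 75.6 with imidacloprid. Every exposed library was below the control, and chlorpyrifos (-1.33) and DDT (-1.23) formed a separate low pair. Hsd17b7, a sterol ketoreductase, was at 11.2, 11.6, 9.03, 14.3, 11.5, 13.1 and 11.3 FPKM in the same order of libraries, lowest with DDT and highest with rotenone. Nsdhl, which acts beside Msmo1, ranged from 33.7 FPKM with DDT to 49.2 FPKM with rotenone, and its difference with DDT was -0.40. Sc5d, the lathosterol oxidase, ranged from 14.8 FPKM with DDT to 20.5 FPKM in the control (-0.44), and Ebp, the sterol isomerase, from 9.51 FPKM with DDT to 11.7 FPKM with chlorpyrifos.

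The other late enzymes gave no single level. Start totals of Cyp51, the lanosterol demethylase, were 69.6 FPKM in the control, 68.7 with chlorpyrifos, 60.6 with DDT, 58.1 with rotenone, 53.5 with carbaryl, 62.4 with deltamethrin and 71.3 with imidacloprid, so that here carbaryl and not DDT was the lowest. Tm7sf2, a sterol reductase whose start was listed under its neighbour Zfpl1, was found by position at 36.6, 40.9, 25.7, 55.4, 37.1, 43.1 and 38.4 FPKM in the same order. DDT was its lowest and rotenone its highest library. End totals of Dhcr7, which carries out a final reduction to cholesterol, ran from 27.4 FPKM with DDT to 46.0 FPKM with carbaryl, while its start totals ran from 28.7 FPKM with carbaryl to 100.5 FPKM with deltamethrin. Taking the larger of the 2 totals for every sterol gene at 1 FPKM or more, DDT was lowest for 12 of 17. Of all genes treated in this way, DDT was lowest for 14.6%. The sterol exceptions were Fdft1, Cyp51, Msmo1, Dhcr7 and Ggps1.

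**Figure D3:**
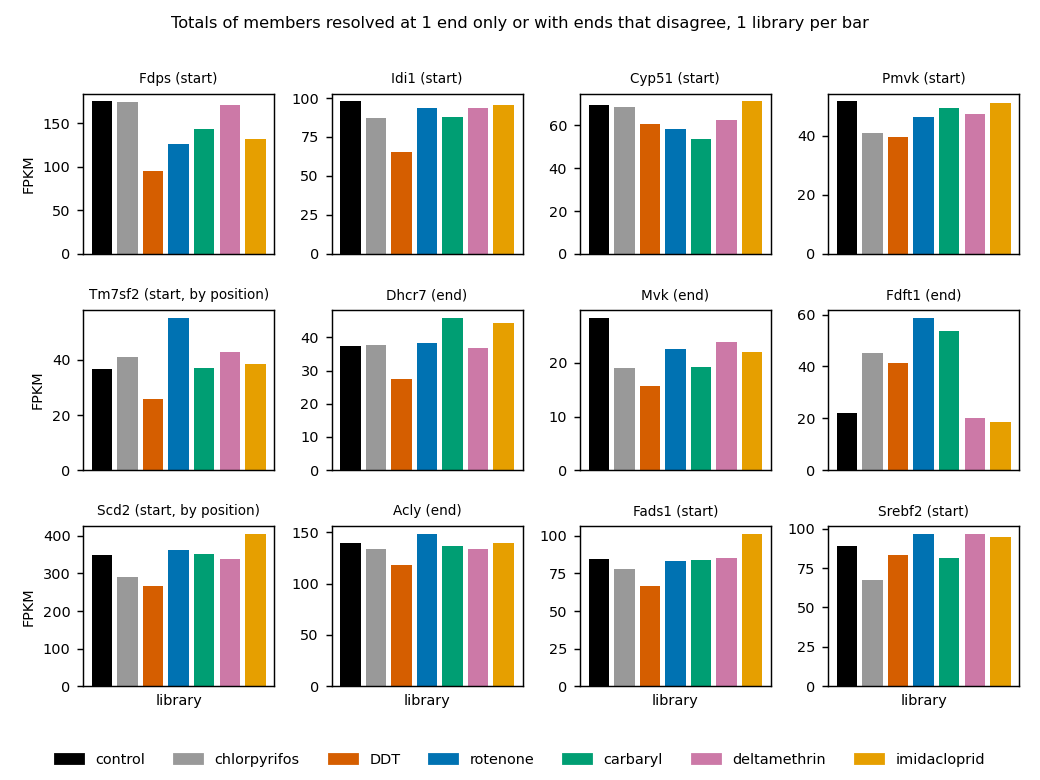
Start or end totals in FPKM, as named above each panel, of 12 genes with a single total, with totals that disagreed or found by position, with 1 bar per library and axes from 0. The DDT bar is the lowest for Fdps, Idi1, Pmvk, Tm7sf2, Dhcr7, Mvk, Scd2, Acly and Fads1, and not for Cyp51, Fdft1 and Srebf2. The genes and totals drawn are a selection. Dhcr7 is drawn by its end total, and its start total was lowest with carbaryl. Acaca and Srebf1 are not drawn, and their start totals were lowest in the control and with chlorpyrifos.

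The regulators of SREBP showed different orders of the libraries. Insig1, itself a target of SREBP that anchors Scap, was at 83.6 FPKM in the control, 78.0 with chlorpyrifos, 66.0 with DDT, 97.5 with rotenone, 85.5 with carbaryl, 87.5 with deltamethrin and 88.7 with imidacloprid. It followed the enzymes, lowest with DDT (-0.34) and highest with rotenone (0.22). Insig2, its relative, was at 6.20, 6.68, 9.58, 6.90, 6.06, 9.48 and 7.71 FPKM in that order, highest with DDT (0.55) and deltamethrin (0.54). Its start and end totals with DDT were 11.0 and 8.18 FPKM. The main Insig2 start, at 121327691 to 121328024 on chromosome 1, was not higher, at 6.10 FPKM in the control, 5.58 with DDT and 4.72 with deltamethrin. Other starts, all at 0 in the control, held 2.67 and 2.60 FPKM with DDT and, at a different place, 4.55 FPKM with deltamethrin. Scap was at 28.3, 31.5, 31.6, 24.9, 29.2, 30.7 and 28.8 FPKM, with rotenone the lowest.

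The SREBP genes themselves were less well resolved. Srebf2, which favours sterol genes, had start totals of 89.1 FPKM in the control, 67.2 with chlorpyrifos, 83.1 with DDT, 96.7 with rotenone, 81.3 with carbaryl, 96.6 with deltamethrin and 94.7 with imidacloprid. Srebf1, which favours fatty acid genes, had end totals of 31.5, 20.7, 18.3, 21.6, 31.3, 20.9 and 26.6 FPKM and start totals of 38.4, 28.1, 30.8, 30.8, 44.1, 33.4 and 43.9 FPKM. Both totals of Srebf1 were lower than the control with chlorpyrifos, DDT, rotenone and deltamethrin. Part of the control's end total was an end at 60201364 to 60201712 on chromosome 11, at 7.18 FPKM there and at most 0.00454 FPKM elsewhere. At the main Srebf1 end the control was at 18.4 FPKM. Chlorpyrifos (16.4), DDT (15.0), rotenone (16.0) and deltamethrin (17.1) were less far below it, and carbaryl (20.3) and imidacloprid (21.8) were above it. For Srebf2 chlorpyrifos was the lowest library, a different one from that of most enzymes.

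In the fatty acid branch the low DDT values ran through synthesis, elongation and desaturation. Fasn (chr11:120805846-120824547), the fatty acid synthase, was at 85.6 FPKM in the control, 75.1 with chlorpyrifos, 61.6 with DDT, 81.2 with rotenone, 89.8 with carbaryl, 83.2 with deltamethrin and 87.9 with imidacloprid. Fads2 (chr19:10062765-10101746), the delta-6 desaturase, was at 123, 109, 94.7, 120.3, 120.1, 119.8 and 121.3 FPKM. Scd1, a stearoyl-CoA desaturase, was at 64.8, 52.6, 45.7, 71.9, 67.8, 65.3 and 66.2 FPKM. In all 3 DDT was lowest (-0.47, -0.37 and -0.49) and chlorpyrifos second lowest (-0.19, -0.18 and -0.29). The elongase Elovl5 ranged from 55.3 FPKM with DDT to 67.1 FPKM with carbaryl, and Elovl6 from 27.7 FPKM with DDT to 34.6 FPKM with deltamethrin, neither past 1.5-fold in any comparison.

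Scd2, the brain-type desaturase, was listed under its neighbour Scd4 and found by position, with start totals of 348 FPKM in the control, 289 with chlorpyrifos, 265 with DDT, 361 with rotenone, 351 with carbaryl, 338 with deltamethrin and 405 with imidacloprid. Its end totals equalled these in every library but imidacloprid, where the end total was 330.2 FPKM. The order of the Scd2 libraries followed that of Scd1 at the low end, and reads shared between these similar genes make the split between them uncertain. Fads1, the delta-5 desaturase, had start totals from 66.8 FPKM with DDT to 101.4 FPKM with imidacloprid, with the control at 84.3 FPKM. Acly, which supplies cytosolic acetyl-CoA, had end totals from 118 FPKM with DDT to 148 FPKM with rotenone, with the control at 139 FPKM. Its start totals disagreed with these and were far lower, from 27.2 FPKM with DDT to 74.2 FPKM with deltamethrin, with the control at 28.9 FPKM. Acaca, the acetyl-CoA carboxylase, had start totals of 7.73, 9.61, 10.9, 14.5, 10.4, 9.46 and 8.10 FPKM from control to imidacloprid. By these its control was the lowest library, but the order depended on the event. The Acaca form with an internal exon of 24 nucleotides was at 20.96 FPKM in the control and lowest with DDT, at 15.2 FPKM. The form without this exon was at 4.56 FPKM in the control, 1.86 with carbaryl and 0.775 with DDT. It was lower still with chlorpyrifos (0.184), rotenone (0.0825), deltamethrin (0.122) and imidacloprid (0.193 FPKM).

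The 3 sterol transport genes ranged very differently. Stard4, a cytosolic sterol carrier, was at 20.5 FPKM in the control, 3.64 with chlorpyrifos, 16.5 with DDT, 7.55 with rotenone, 20.2 with carbaryl, 4.72 with deltamethrin and 4.13 with imidacloprid. The libraries fell into a high set of control, DDT and carbaryl and a low set of the other 4. The lowest difference was -2.22, with chlorpyrifos. Npc1, which moves sterol out of lysosomes, had end totals of 11.0, 16.8, 15.7, 15.0, 15.9, 17.2 and 10.8 FPKM in the same order. Its start totals were 3.96, 16.7, 15.1, 15.0, 15.8, 17.3 and 5.33 FPKM. Both totals were low in the control and with imidacloprid and alike elsewhere, and the differences of 0.92 to 1.11 in 5 comparisons all use the shared control, where the 2 totals disagreed. Its partner Npc2 was at 41.2, 42.8, 43.4, 47.4, 43.1, 42.9 and 42.4 FPKM in the same order, a 1.15-fold span with the control lowest and rotenone highest.

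Efflux rested on 1 gene. Nr1h2 (chr7:44549616-44553951), the LXR beta receptor, was at 13.3 FPKM in the control, 13.2 with chlorpyrifos, 14.9 with DDT, 13.3 with rotenone, 1.60 with carbaryl, 12.1 with deltamethrin and 14.8 with imidacloprid. Carbaryl was low at the start (1.77 FPKM) and at the end (1.43 FPKM), and the other 6 libraries were within 1.5-fold of each other. The transporters that LXR controls were barely present. Abca1 had end totals of 0.890 to 1.92 FPKM, Abcg1 had no total above 0.870 FPKM in any library, and Mylip, a ubiquitin ligase, had none above 0.985 FPKM. Nr1h3, the LXR alpha receptor, was found by position at no more than 0.746 FPKM. With levels this low no efflux target could be compared.

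Other genes of the same routes were taken from a list of 24, of which 12 could be used. With DDT their median was -0.10, and 8 of the 12 were lower (66.7%, beside 47.6% of all genes). The DDT library had the lowest level for 6 of the 12 (50%, beside 15.0%), and 1 of the 12 lay past 1.5-fold (8.33%), a share near the 6.78% of all genes. The 1 past 1.5-fold was Acss2, which makes acetyl-CoA from acetate, at 8.33 FPKM against 13.8 in the control (-0.60). Acsl3, which activates long-chain fatty acids, was at 28.8 FPKM with DDT and between 30.6 and 34.8 FPKM in the other libraries. Soat1 with rotenone (-0.84) and Rdh11 with deltamethrin (0.82) were the only others past 1.5-fold in the 6 comparisons, also near the shares of all genes.

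The same files resolve transcript forms. Of 22 exon-skipping events in these genes with at least 5 FPKM in every library, the skipped share ranged over 25 percentage points or more across the 7 libraries in 6 (27.3%), beside 23.5% of 6328 such events in all genes. The share was therefore near that of all genes. The 6 events were in Acaca, Dhcr7, Fdps, Acly, Msmo1 and Acat2, and their ranges ran from 25.3 to 56.8 points.

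In Msmo1 the form that skips several exons together, between 64723588 and 64727908 on chromosome 8, was at 33.4 FPKM in the control and at 0.971 to 4.49 FPKM in the exposed libraries. The form with these exons was at 66.2 FPKM in the control, 38.3 with chlorpyrifos, 40.8 with DDT, 78.9 with rotenone, 86.5 with carbaryl, 70.2 with deltamethrin and 71.4 with imidacloprid. By the second form alone 4 exposed libraries were above the control, while chlorpyrifos and DDT were again the lowest.

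Stard4 differed in form between libraries of like total, in an event outside the 22 above because its 2 forms together were under 5 FPKM in some libraries. The form lacking an exon of 115 nucleotides was at 13.5 FPKM with DDT and 16.4 FPKM with carbaryl, and at no more than 0.405 FPKM in each other library. The form with this exon was at 19.4 FPKM in the control, 2.997 with chlorpyrifos, 2.43 with DDT, 6.77 with rotenone, 3.18 with carbaryl, 3.78 with deltamethrin and 2.91 with imidacloprid. By this form all 6 exposed libraries were below the control, including the 2 whose totals were close to it.

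Starts differed too. Srebf1 is known to be read from more than 1 start, giving proteins of different strength. The upstream start, at 60220453 to 60220604 on chromosome 11, held 28.7% of its start FPKM in the control, 29.4% with chlorpyrifos, 19.1% with DDT, 18.7% with rotenone, 29.8% with carbaryl, 25.3% with deltamethrin and 43.1% with imidacloprid. The downstream start, at 60210336 to 60210465, held the rest, and was the larger in each library. In level the downstream start ran from 19.9 FPKM with chlorpyrifos to 30.9 FPKM with carbaryl, and the upstream one from 5.74 FPKM with rotenone to 18.9 FPKM with imidacloprid. Which start gives which protein was not matched here.

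Dhcr7 listed different starts in different libraries. Its most upstream start, at 143823145 to 143823540 on chromosome 7, held 37.2 FPKM in the control, 37.3 with chlorpyrifos, 27.0 with DDT and 38.0 with rotenone, and it was listed at 0 with carbaryl, deltamethrin and imidacloprid. In those 3 libraries the FPKM stood at the second start with deltamethrin (98.3 FPKM), at the fourth with carbaryl (27.4 FPKM) and at both with imidacloprid (37.8 and 24.96 FPKM). The fourth start was also listed at 17.4 FPKM in the control, 12.8 with chlorpyrifos, 12.2 with DDT and 11.9 with rotenone. The main end of Dhcr7 varied far less, from 27.0 FPKM with DDT to 45.8 FPKM with carbaryl.

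**Figure D4:**
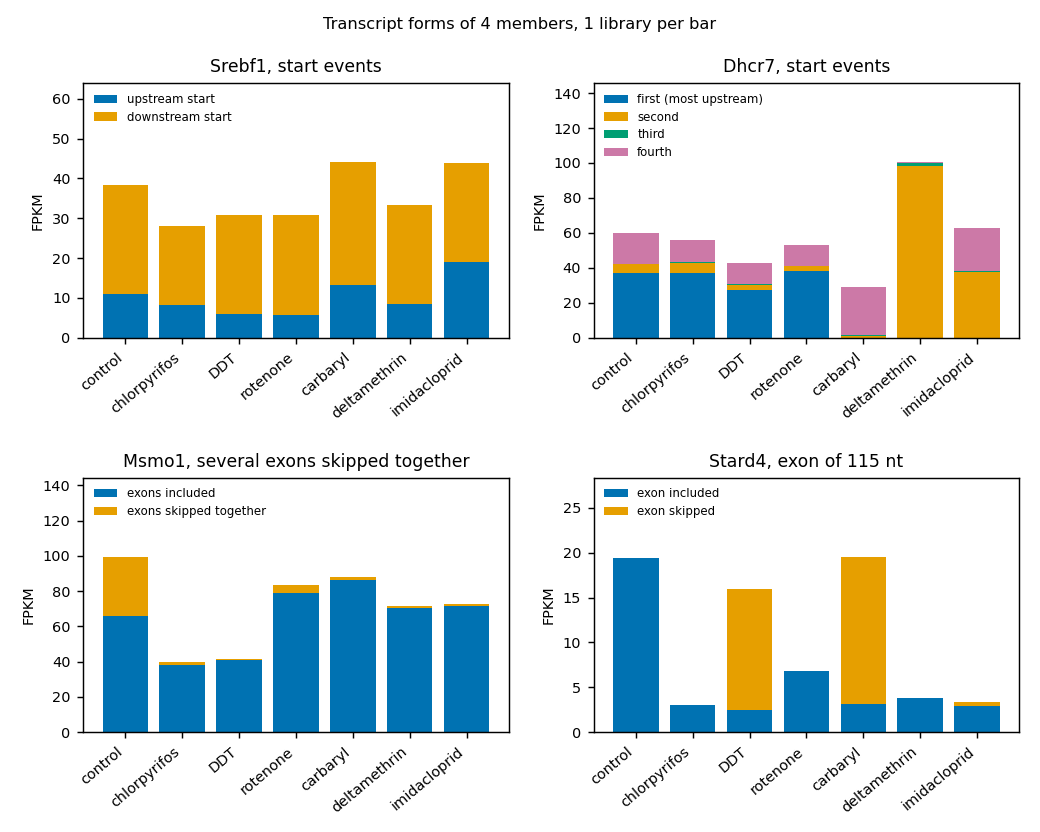
FPKM of the start events of Srebf1 and Dhcr7 and of the exon-including and exon-skipping forms of Msmo1 and Stard4, as stacked bars with 1 bar per library. The Msmo1 skipping form is tall in the control alone (33.4 FPKM), and the Stard4 skipping form is tall with DDT and carbaryl (13.5 and 16.4 FPKM).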

How the data were processed

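Total RNA of 7 cultures was sequenced. The submitters' processing notes name HISAT2 2.0.1, cutadapt 1.9.1, bcl2fastq 2.17.1.14 and the build GRCm38. How the authors computed their FPKM was not given in the sources used here. The authors' files list FPKM per event, and only events above 0, so an unlisted event counts as 0. Between 1973 and 2078 repeated lines per library were dropped, none of them a start or end. Groups come from the titles, and every sample was used.

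Genes were taken by the identifier on each line. The line names 1 gene per merged locus. By position, 96.8% of start and end FPKM matched a gene, and 6.51% of that stood on a line naming another. Genes entered comparisons where the start and end totals, averaged over 7 libraries, were within 0.3 (log2) of each other and the mean was at least 1 FPKM. A total below 5% of its counterpart was treated as missing. The pseudocount was 1 FPKM, which understates the change of low genes, and no difference is given where either library is at 0. Of all genes, 2869 had totals that disagreed, 2777 a start only and 521 an end only, and 1176 were under 1 FPKM. Python 3.11.15, numpy 2.4.6 and pandas 2.3.3 were used, and the steps were tested on simulated data.

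Genes given with a value in every library are the usable ones whose range was at least 0.58 on the log2 scale and the 2 most abundant per branch. Other genes named, such as several resolved at 1 end, Acsl3, the pathway genes past 1.5-fold and the 4 genes whose forms are drawn, were chosen after their values had been seen. Some genes of the lists are not reported here. The genes and lists were chosen with earlier results of these data known. Other pseudocounts, filters, ends, gene matching, scaling and reference were tried.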

Additional observations from a re-analysis of the deposited data

How the results depend on the processing

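The 18 branch medians were recomputed under 10 alternatives each, 1 of them, which also asked the 2 totals to be alike in both libraries compared, chosen after seeing the data. Of the 177 values obtained, 161 lay within 0.1 (log2) of the reported median, and 15 of these had the other sign, all for reported medians of at most 0.06 in size. Part of this likeness was fixed in advance. For sterol and fatty acid synthesis, dropping the filter on low values or raising it to 5 FPKM left the same genes and medians. Scaling the libraries could shift a median by no more than 0.0124. In 3 cases Nr1h2 was left out and efflux had no value. The DDT median lay between -0.44 and -0.37 for sterol synthesis and between -0.38 and -0.29 for fatty acid synthesis under every alternative, and at -0.40 for sterol synthesis without Acat2. All 60 alternatives of the fatty acid medians stayed within that tolerance, although the chlorpyrifos median of -0.18 became -0.09 over 8 genes with start totals and with the larger total. The sterol median with rotenone was 0.06 as reported and -0.0497 with the larger total of each gene, over 17 genes. The other shifts were in efflux, which rests on 1 gene, or 2 where Abca1 or Abcg1 entered. Its DDT median of 0.15 became -0.14 with end totals, -0.14 with the larger total and 0.0173 with no filter on low values. Its carbaryl median of -2.46 became -2.35 with start totals, -1.55 with end totals, -1.44 with the larger total, -1.10 with no filter and -2.98 with a pseudocount of 0.1 FPKM. Its chlorpyrifos median of -0.01 became 0.15, -0.31 and -0.14 with start, end and larger totals. With rotenone, -0.00 became 0.15, -0.23 and 0.15 with start totals, end totals and no filter, and with deltamethrin -0.12 became -0.0242 with no filter. In these, beyond the change in genes entering, the cause was not tested. No paired analysis was possible because each group has 1 library. With 1 library per group, culture and insecticide cannot be told apart.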
